A study of Mus musculus with 6 samples.

Results

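The proteasome is the barrel-shaped protease that breaks down ubiquitin-tagged proteins, and the peptides it releases can be loaded onto MHC class I molecules. In most cells its catalytic sites are the constitutive subunits encoded by Psmb5, Psmb6 and Psmb7. Interferon-gamma is known to induce the immunosubunits encoded by Psmb8, Psmb9 and Psmb10, which take the places of Psmb5, Psmb6 and Psmb7, respectively, when a new particle is assembled with the help of the chaperone Pomp. It also induces Psme1 and Psme2, whose products form the PA28 alpha-beta cap on the barrel, whereas Psme3 encodes the nuclear PA28 gamma cap. These 10 genes, of 24346 gene symbols measured, are described here in both lines of the study.

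The 10 genes were chosen by name, with their FPKM differences between M8 and parental cells already known, so every difference between the lines in these genes is given as a description. Where the fit over all genes also made a call for them, it is counted but not used as evidence. RNA was sequenced from CT26.mMR1 cells, the mouse colorectal tumor line CT26 transduced with a retrovirus carrying mouse MR1, and from M8 cells. M8 was obtained by treating CT26.mMR1 cells with the mutagen ENU, deriving clones by limiting dilution and screening these for surface MR1 and for activation of a mouse MAIT reporter line, so M8 is 1 clone. The sample titles name the parental line CT26_cl9 and the mutant CT26_cl9_M8, and the labels do not explain cl9. What is particular to this clone and what ENU treatment would do in general cannot be told apart. Both lines carry the MR1 transgene, and each was sequenced in 3 biological replicates without further treatment stated in the labels. The unit is FPKM as calculated by the authors, a read count scaled by transcript length and by sequencing depth, so that levels can be compared between genes.

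The libraries held an estimated 23800000 to 26900000 mapped reads in parental cells and 19400000 to 22000000 in M8, from the size of 1 read in weakly expressed genes. Every M8 library was thus shallower than every parental one, and the part of depth in the differences below was not tested. Mr1 lay between 1034 and 1139 FPKM in all 6 libraries. The labels name the colon as the tissue, but Epcam, Krt19 and Cdh1 were at 0 in every library, as were Cdx2, Lgr5, Car1 and Slc26a3. Of the 14 epithelial and colonocyte markers, Krt18 and Krt20 alone had a mean of at least 1 FPKM. Krt20 had 15.1, 17.2 and 19.8 FPKM in parental replicates and 12.7, 12.3 and 10.8 FPKM in M8, without overlap, and its relation to the differences described here was not tested. None of 12 leukocyte markers reached a mean of 1 FPKM, and their summed level was 0.497 to 1.15 FPKM in parental cells and 0.168 to 0.587 FPKM in the M8 libraries. Cd3e, Cd8a, Adgre1 and Csf1r were at 0 throughout. Leukocytes, which express immunosubunits strongly, were thus at or near 0 by these markers.

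The promoters of the genes are the natural place to look for the sequences through which the family is known to be controlled. RefSeq (GRCm38.p6) windows from 250 bases before to 50 bases after a transcript start were on hand for 9 of the 10 genes, with Psmb7 as the exception. Each was searched on both strands for TTCNNNGAA (GAS, the gamma-interferon activated site), a pair of GAAA with any 2 bases between them (ISRE, the interferon-stimulated response element) and TGACNNNGC (ARE, bound by Nfe2l1 and Nfe2l2, which control constitutive proteasome genes). The letters were picked after the windows had been read. Of 32851 windows of the same length, 8.30% held the GAS letters, 3.44% the ISRE letters and 12.4% the ARE letters. Psmb8 alone of the 9 genes held the GAS letters, Psme1 alone the ISRE letters, and Psmb5 and Psmb6 the ARE letters. Counts this small in 9 genes were not tested against the shares over all windows, and nothing is read from the split. The matches are shown in 30 bases each with the letters in capitals, at chr17:34198088-34198117 (plus strand) for Psmb8, chr14:55578493-55578522 (plus strand) for Psme1, chr14:54618023-54618052 (minus strand) for Psmb5 and chr11:70525338-70525367 (plus strand) for Psmb6.

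Psmb8: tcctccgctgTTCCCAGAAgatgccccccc
Psme1: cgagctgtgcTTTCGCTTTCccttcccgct
Psmb5: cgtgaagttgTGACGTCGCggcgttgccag
Psmb6: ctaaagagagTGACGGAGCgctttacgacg

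The GAS match began 97 bases before the start of Psmb8, the ARE matches 47 and 9 bases before those of Psmb5 and Psmb6, and the ISRE match was on the opposite strand from base 10 to base 19 of Psme1. These distances are counted from the start used for each promoter window. The gene record of Psmb6 begins further upstream, at 70525324, so that its match lies inside the gene as RefSeq lists it. In GENCODE M21 the matches of Psmb8 and Psme1 lie in an annotated untranslated exon, for Psmb8 through a transcript that starts further upstream. Psmb10, the gene with the largest difference between the lines, held none of the 3 motifs in its window, nor did Psmb9, Psme2, Psme3 or Pomp. Its 150 bases upstream of the outermost annotated start, at chr8:105938445-105938594 (minus strand), are shown for that reason.

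Psmb10: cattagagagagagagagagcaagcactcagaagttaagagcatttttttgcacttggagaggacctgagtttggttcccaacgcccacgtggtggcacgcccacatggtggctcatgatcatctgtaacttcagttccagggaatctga

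A match of letters is no evidence that a factor binds, and letters that are missing from a window say nothing about sites elsewhere.

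All 10 genes were expressed in every library, from 10.2 FPKM for Psmb9 in parental replicate 2 to 308 FPKM for Pomp in M8 replicate 2. Averaged over the 6 libraries, the order of FPKM levels was Pomp (279.6), Psme2 (262), Psmb7 (179), Psme1 (178), Psmb5 (169.8), Psmb6 (139.6), Psme3 (71.7), Psmb8 (29.8), Psmb10 (21.7) and Psmb9 (11.9). The immunosubunits were thus the 3 lowest. Neighbours in this order were compared within libraries by an exact sign-flip permutation test on log2(FPKM + 1), two-sided, with adjustment over the 9 pairs. Pomp and Psme2 did not differ beyond the spread (exact adjusted p = 0.0804), nor did Psmb7 and Psme1 (exact adjusted p = 0.969) or Psme1 and Psmb5 (exact adjusted p = 0.387). These tests take both lines together, and Psmb7 was above Psme1 in all 3 parental libraries and below it in all 3 M8 libraries. The other 6 neighbouring pairs kept their order in all 6 libraries (exact adjusted p = 0.0469 for each). The pairs and their order were taken from the same 6 libraries, so these p-values are no independent support for the order.

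**Figure D1:**
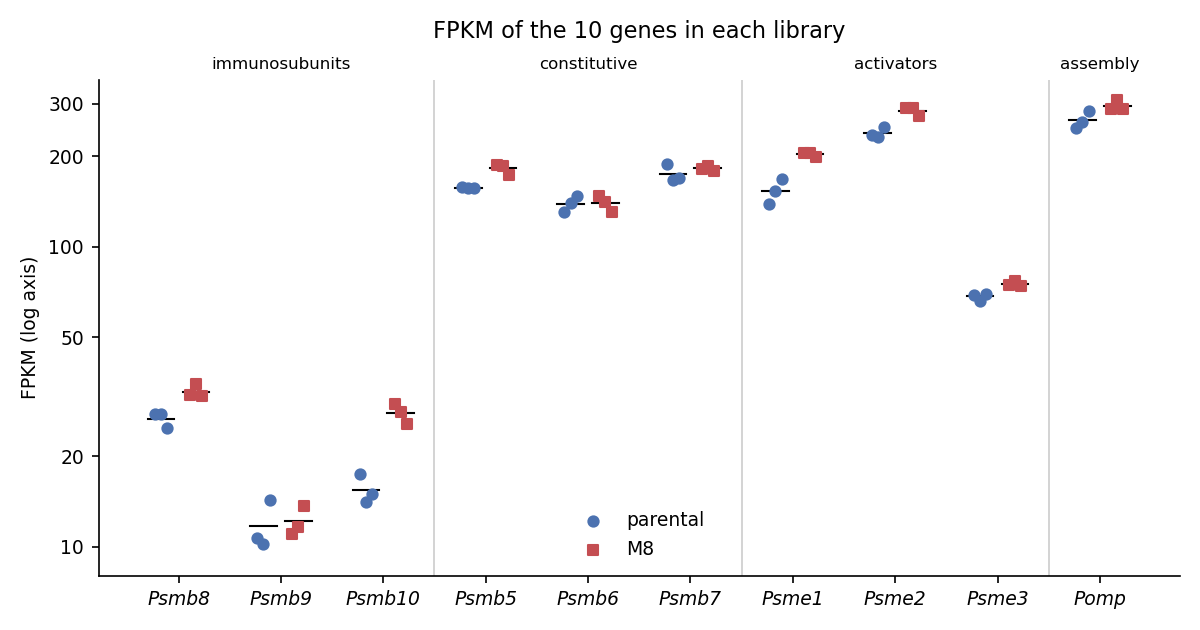
FPKM (log axis) of the 10 genes in each of the 3 parental (circles) and 3 M8 (squares) libraries, with a line at each mean, grouped by role. The immunosubunits lie between 10.2 and 34.8 FPKM and their constitutive counterparts between 130.3 and 189 FPKM, and the M8 squares of Psmb10 stand clear of its parental circles.

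The counterparts of the immunosubunits were far more abundant at the RNA level in both lines. Within libraries, Psmb5 was 5.36 to 6.32 times as high as Psmb8, Psmb6 was 9.52 to 13.8 times as high as Psmb9, and Psmb7 was 6.08 to 11.9 times as high as Psmb10. The mean log2 ratio of immunosubunit to counterpart was -2.48 ± 0.079 (SD, n = 6) for Psmb8, -3.45 ± 0.20 (SD, n = 6) for Psmb9 and -3.05 ± 0.42 (SD, n = 6) for Psmb10. Each had the same sign in 6 of 6 libraries, with an adjusted p of 0.031 in the exact sign-flip test over 3 pairs, the smallest p that 6 libraries allow. These are 3 libraries of each line, and M8 was derived from the parental line, so they are not 6 independent samples. This test compares levels of RNA between genes inside a library and does not test the difference between the lines. The ratios pool both lines, however, so the SD and range for Psmb10 also hold its difference between the lines. The levels depend on the transcript lengths used by the authors, which were not given in the sources used here.

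Psmb10, the immunosubunit with trypsin-like activity, showed the largest difference between the lines among the 10 genes. Its FPKM was 17.4, 14.1 and 14.9 in parental replicates 1 to 3 and 29.96, 28.1 and 25.6 in the M8 replicates. The lowest M8 library was above the highest parental one. The means were 15.5 ± 1.75 (SD, n = 3) and 27.9 ± 2.21 FPKM (SD, n = 3), a ratio of 1.80 and a log2 difference of 0.81 (standard error 0.081) on the log2(FPKM + 1) scale. Of the 10597 genes tested, 99.8% had a lower log2 difference. Psmb10 was also the only one of the 10 genes to pass a fold change of 1.5, and its log2 difference lay between 0.75 and 0.89 in all alternatives that were run.

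Psmb8, the immunosubunit with chymotrypsin-like activity, had 27.6, 27.7 and 24.9 FPKM in parental cells and 31.9, 34.8 and 31.7 FPKM in M8. The groups did not overlap, but they were much closer than for Psmb10. The mean went from 26.7 ± 1.59 to 32.8 ± 1.70 FPKM (SD, n = 3 each), and the log2 difference was 0.29 (standard error 0.057).

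Psmb9, the immunosubunit that takes the place of the caspase-like Psmb6, was the weakest of the 10 genes and the most variable between replicates. It had 10.7, 10.2 and 14.3 FPKM in parental replicates 1 to 3 and 11.0, 11.7 and 13.7 FPKM in M8. The highest value of all was that of parental replicate 3, and the groups overlapped. The means were 11.7 ± 2.23 and 12.1 ± 1.38 FPKM (SD, n = 3 each), with a log2 difference of 0.054 (standard error 0.12). Without parental replicate 3 the log2 difference was 0.19, without M8 replicate 3 it was -0.029, and without parental replicate 2 it was -0.032. The coefficient of variation was 19.01% between the parental and 11.4% between the M8 replicates, at an estimated 261 to 443 reads per library. The reads are an estimate from the length of the principal GENCODE transcript.

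**Figure D2:**
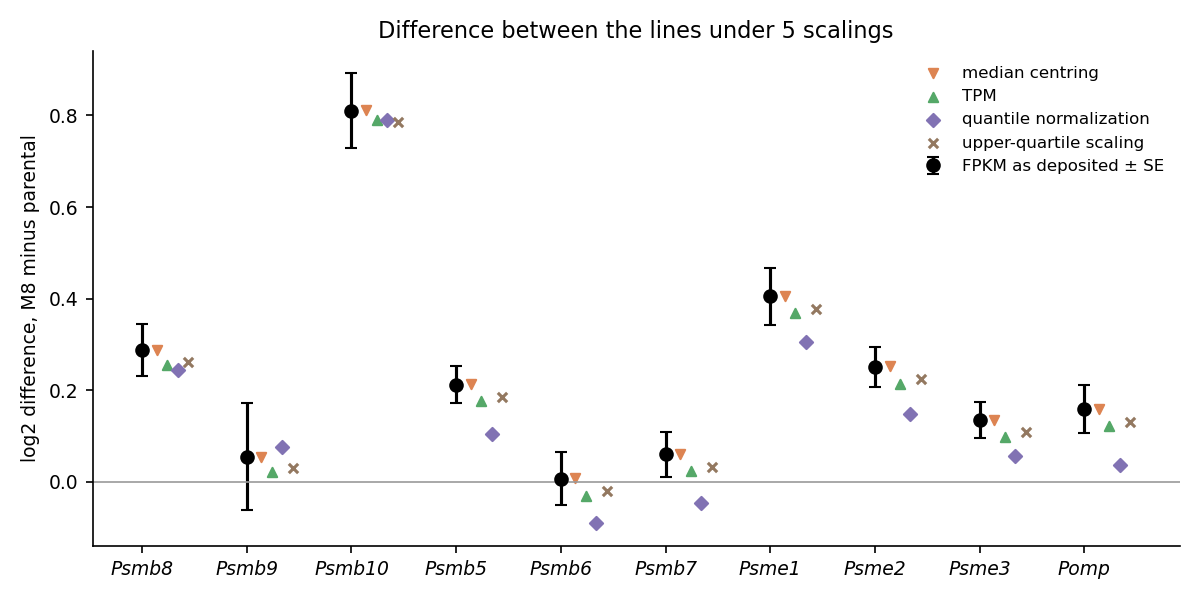
Log2 difference, M8 minus parental, of the 10 genes in FPKM as deposited (black, bars are the standard error of the limma fit) and under 4 other scalings of the libraries (colored markers, no error drawn). Psmb10 stays near 0.8 under all 5, while Psmb6 and Psmb7 fall below 0 with quantile normalization and Psmb6 also with TPM and upper-quartile scaling.

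Of the constitutive counterparts, Psmb5 alone was separated between the lines. It encodes the chymotrypsin-like site and is the target of bortezomib. Its parental replicates were almost identical, at 158, 157 and 157 FPKM, against 187, 186 and 174 FPKM in M8. The mean went from 157 ± 0.313 to 182 ± 7.21 FPKM (SD, n = 3 each), and the log2 difference was 0.21 (standard error 0.040), or 0.10 with quantile normalization.

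Psmb6, the caspase-like site, had 130.3, 140.4 and 147 FPKM in parental cells and 148, 141 and 130.3 FPKM in M8. The lines covered the same range, with a log2 difference of 0.0067 (standard error 0.059) that turned negative with TPM, upper-quartile scaling and quantile normalization. Psmb7, the trypsin-like site and counterpart of Psmb10, had 189, 167 and 169.5 FPKM in parental cells and 182, 185 and 179 FPKM in M8. Parental replicate 1 was above every M8 library, and the log2 difference was 0.060 (standard error 0.050), or -0.047 with quantile normalization. Without parental replicate 1 the log2 difference of Psmb7 was 0.11, and without parental replicate 2 it was 0.028.

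The share of each immunosubunit in the summed FPKM of its pair does not depend on a scaling factor common to all genes of a library. For Psmb10 and Psmb7, the Psmb10 share was 8.46%, 7.76% and 8.10% in parental replicates 1 to 3 and 14.1%, 13.2% and 12.5% in the M8 replicates. The mean share went from 8.10% ± 0.349 to 13.2% ± 0.832 (SD, n = 3 each), 5.14 percentage points. For Psmb8 and Psmb5, both of which were higher in M8, the Psmb8 share was 14.5% ± 0.744 in parental cells and 15.2% ± 0.593 in M8 (SD, n = 3 each), and the groups overlapped. The Psmb9 share of Psmb9 and Psmb6 was 7.74% ± 1.05 and 8.02% ± 1.33 (SD, n = 3 each), also with overlap. This Psmb9 difference of 0.28 percentage points turned to -0.20 without parental replicate 2 and to -0.46 without M8 replicate 3, and was 0.84 without parental replicate 3 and 0.83 without M8 replicate 1. The Psmb8 difference of 0.73 percentage points was 0.30 without parental replicate 3. Over all 6 catalytic subunits, the immunosubunits made up 10.1% to 10.5% of the summed FPKM in parental cells and 12.4% to 12.8% in M8. Their summed level went from 53.9 ± 1.92 to 72.8 ± 1.77 FPKM, and that of the counterparts from 472 ± 6.26 to 505 ± 18.1 FPKM (SD, n = 3 each). Of the 18.9 FPKM by which the immunosubunits differed, Psmb10 accounted for 12.4 and Psmb8 for 6.09. RNA shares are not shares of protein or of assembled particles, which were not measured here.

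**Figure D3:**
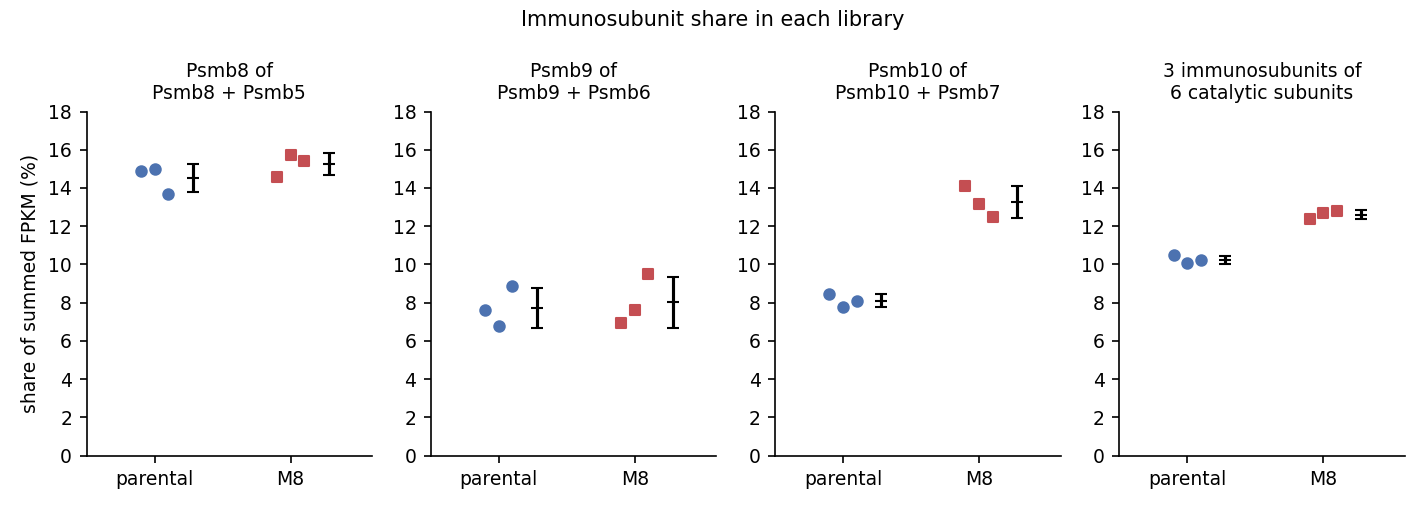
Share of each immunosubunit in the summed FPKM of its catalytic pair (%), and of the 3 immunosubunits in all 6 catalytic subunits, for each parental (circles) and M8 (squares) library, with mean ± SD beside them. The Psmb10 share lies at 7.76% to 8.46% in parental cells and at 12.5% to 14.1% in M8, whereas the Psmb8 and Psmb9 shares overlap between the lines.

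The 3 activator genes were all higher in M8, with log2 differences between 0.13 and 0.41. Psme1 had 139, 154 and 168 FPKM in parental cells and 205, 205 and 199 FPKM in M8. The parental replicates were spread out and the M8 replicates tight, and they did not overlap. The means were 154 ± 14.8 and 203 ± 3.30 FPKM (SD, n = 3 each), with a log2 difference of 0.41 (standard error 0.063), the second largest of the 10.

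Psme2 had 235, 232 and 249.9 FPKM in parental cells and 290.4, 289 and 273 FPKM in M8, again without overlap. Its log2 difference was 0.25 (standard error 0.044), or 0.15 with quantile normalization. The ratio of Psme1 to Psme2, whose products sit in the same ring, was 0.59, 0.66 and 0.67 in parental replicates and 0.71, 0.71 and 0.73 in M8. Psme3 had 69.2, 66.1 and 69.7 FPKM in parental cells and 74.6, 76.6 and 74.2 FPKM in M8, a log2 difference of 0.13 (standard error 0.040), or 0.057 with quantile normalization. The groups were apart by less than for the other activator genes, and the summed level of Psme1 and Psme2 was 5.74 ± 0.305 times that of Psme3 in parental cells and 6.49 ± 0.135 times in M8 (SD, n = 3 each).

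Pomp, which docks the precursor barrel to the membrane of the endoplasmic reticulum during assembly, had 249, 261 and 283 FPKM in parental cells and 288, 308 and 288 FPKM in M8. Its groups did not overlap, but parental replicate 3 came close to M8 replicates 1 and 3. The log2 difference was 0.16 (standard error 0.053), and 0.037 with quantile normalization.

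In counts, limma called 7 of the 10 genes higher in M8 and 0 lower at an adjusted p below 0.1, against 21.2% and 16.5% of all genes tested. That background of 2250 higher and 1745 lower genes turned to 1658 higher and 2209 lower with TPM and to 1848 and 2154 with upper-quartile scaling, with 6 and 7 of the 10 genes called higher, respectively. The same 7 genes had replicates that did not overlap between the lines, as did 45.2% of all genes tested in either direction. The genes called were Psmb8, Psmb10, Psmb5, Psme1, Psme2, Psme3 and Pomp, and all 10 log2 differences were above 0. The median log2 difference of the 10 was 0.18, beside 0.0069 over all genes tested. Because the genes were selected on this contrast, nothing is read from these counts. Without M8 replicate 2 or without parental replicate 2 the count was 5, since Psme3 and Pomp no longer passed, and quantile normalization gave 5 for the same reason. Pomp was also not called without parental replicate 1, where Psmb7 was.

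On chromosome 17, Psmb9 (34182030 to 34187330, minus strand) and Psmb8 (34198195 to 34201454, plus strand) flank Tap1 in the MHC region. Tap1, a chain of the peptide transporter, starts 225 bases from Psmb9 on the other strand and ends 969 bases before Psmb8. Tap1 had 36.2, 37.5 and 34.8 FPKM in parental cells and 37.6, 40.3 and 39.4 FPKM in M8 (log2 difference 0.11, limma adjusted p = 0.106), between Psmb9 and Psmb8 in size of difference. GENCODE exons of Tap1 and Psmb9 share 212 bases on opposite strands, and the noncoding gene Gm20496 covers 498 exonic bases of Psmb8, so reads could be exchanged if strand was ignored in counting, which the sources used here do not state. Psmb10 lies alone in its exons on chromosome 8 (105935728 to 105938392, minus strand). Psme1 (55578494 to 55581527, plus strand) and Psme2 (55587440 to 55591101, minus strand) are 5912 bases apart on chromosome 14, which also holds Psmb5 (54614120 to 54617995, minus strand). Psme1 shares 14 exonic bases with Emc9, Psmb5 contains the microRNA gene Mir686, and exons of Nek6 cover 405 exonic bases of Psmb7.
Psmb6 (70525324 to 70527858) and Psme3 (101316213 to 101323537) are on chromosome 11, Psmb7 (38588046 to 38643952, minus strand) is on chromosome 2 and Pomp (147860628 to 147875784) on chromosome 5. Psme2 has an intronless copy, Psme2b, listed at 15.5 ± 0.969 FPKM in the parental line against 14.7 ± 0.968 FPKM in M8 (SD, n = 3 each), and pseudogenes are named after Psmb5, Psmb6 and Psmb7. How reads that fit a gene and its copy were assigned is not stated, so these values are less certain.

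The genes whose FPKM followed Psmb10 most closely were found by the root mean square distance of log2(FPKM + 1), centered on the parental mean, over the 6 libraries among 8300 other genes with a mean of at least 5 FPKM. They were Zbp1, a sensor of Z-form nucleic acid, at a distance of 0.055, the chemokine gene Ccl5 (0.093), the guanylate-binding protein gene Gbp3 (0.10), Serpinf1, which encodes a secreted serpin (0.11), and the ADP-ribosyltransferase gene Parp12 (0.12). Zbp1 had 50.6 ± 4.13 FPKM in the parental line against 90.5 ± 3.46 FPKM in M8 (SD, n = 3 each), a log2 difference of 0.83 beside the 0.81 of Psmb10. Of the other 9 genes described here, Psme1 was nearest to Psmb10, but only at rank 228, followed by Psmb8 at rank 530. Psmb9 was at rank 4500.

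The genes nearest to Psmb8 were Mbd6, Cenpw, Ccdc137, Lgals7 and Pak4, at distances of 0.028 to 0.037, and Psmb5 was at rank 362. Those nearest to Psmb9 were Ndufaf2, Dusp12, Nadk2, Nit2 and Oip5, at distances of 0.065 to 0.078. The 3 immunosubunits had no gene in common among their nearest 5. Their unlike log2 differences between the lines (0.81 for Psmb10, 0.29 for Psmb8 and 0.054 for Psmb9) largely fixed this in advance. With 6 libraries these distances are a description, and they mix the difference between the lines with the spread inside each line.

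**Figure D4:**
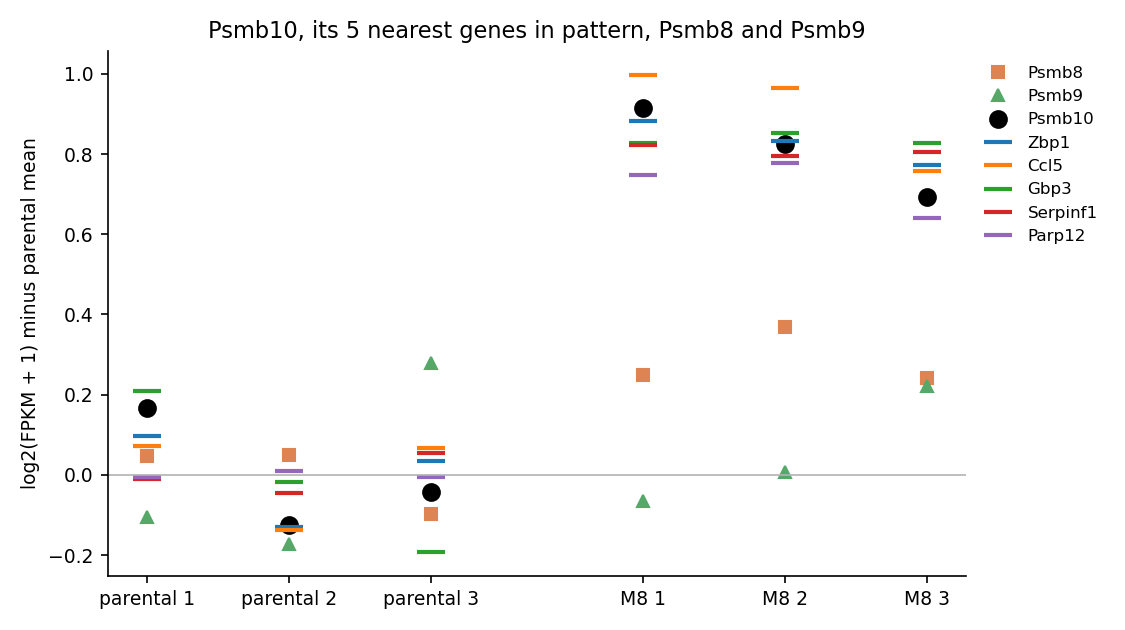
Log2(FPKM + 1) minus the parental mean in each library for Psmb10 (black circles), its 5 nearest genes (colored bars), Psmb8 (squares) and Psmb9 (triangles). In the M8 libraries Psmb10 and its nearest genes lie together far above Psmb8, and Psmb9 lies between -0.17 and 0.28 in both lines.

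Of the other 11 subunits of the 20S barrel, limma called 2 higher (18.2%), Psma2 and Psma3, and 1 lower (9.09%), Psmb1, beside 21.2% and 16.5% of all genes, with a median log2 difference of 0.059. Psma2, an outer-ring alpha subunit, rose from 174 ± 4.15 to 205 ± 3.59 FPKM (SD, n = 3 each, log2 difference 0.24, limma adjusted p = 0.00236). The call of Psma3 was lost with quantile normalization. The call of Psmb1 (log2 difference -0.091, limma adjusted p = 0.0947) was lost without any single library except parental replicate 3. Psmb11 and Psma8, the thymus-restricted and testis-restricted subunits, were listed at 0 FPKM in all libraries. No other 20S subunit came near the log2 difference of Psmb10.

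Of 18 genes of the 19S regulator, which unfolds substrates and feeds them into the barrel, limma called 7 higher (38.9%) and 1 lower (5.56%), beside 21.2% and 16.5% of all genes, with a median log2 difference of 0.062. The largest increases were those of Psmc3 (log2 difference 0.19, limma adjusted p = 0.00492), an ATPase of the base, Psmd1 (0.17, limma adjusted p = 0.0152) and Psmd7 (0.17, limma adjusted p = 0.0285). The call of Psmd7 was lost without M8 replicate 2, and those of Psmd1 and Psmd7 with quantile normalization. The lower gene, Psmd14, singled out after its values had been seen (log2 difference -0.12, limma adjusted p = 0.0942), was lost with the replicate block and without any single library except parental replicate 1. The count of 7 was 1 with quantile normalization and 4 without M8 replicate 2. Among 12 assembly chaperones and other regulators found in the files, of 13 listed, 6 were called higher (50%) and 2 lower (16.7%), with a median log2 difference of 0.088. The 6 were 3 with TPM, with quantile normalization, without M8 replicate 2 and without M8 replicate 3. The deubiquitinase gene Uchl5 (log2 difference 0.28, limma adjusted p = 0.0134) and the chaperone gene Psmg1 (0.24, limma adjusted p = 0.0302) rose, the call of Psmg1 being lost without M8 replicate 3. Psme4, which encodes the alternative cap PA200, fell from 15.4 ± 0.882 to 12.6 ± 0.458 FPKM (SD, n = 3 each, log2 difference -0.27, limma adjusted p = 0.00741), against the direction of Psme1, Psme2 and Psme3.

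Downstream of the proteasome, 2 of 11 genes of peptide transport and loading were called higher and 3 lower, or 18.2% and 27.3% beside 21.2% and 16.5% of all genes. The other 6 passed in neither direction, and the median log2 difference was -0.055. Tapbp, which encodes tapasin, the bridge between the transporter and MHC class I, rose from 86.2 ± 2.87 to 123 ± 5.24 FPKM (SD, n = 3 each, log2 difference 0.51, limma adjusted p = 0.000206). Its relative Tapbpl, a peptide editor, rose as well (log2 difference 0.46, limma adjusted p = 0.00436). Tap2, the other chain of the transporter, fell from 64.5 ± 3.89 to 57.2 ± 1.85 FPKM (SD, n = 3 each, log2 difference -0.17, limma adjusted p = 0.0362), a call lost without M8 replicate 3. The count of lower genes was 6 with TPM, 5 with quantile normalization or upper-quartile scaling, and 1 without M8 replicate 1 or without M8 replicate 3.

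Of 18 genes for receptors, kinases and transcription factors known to induce immunosubunits, or to limit that induction, 5 were called higher (27.8%) and 3 lower (16.7%), beside 21.2% and 16.5% of all genes (median log2 difference -0.032). Stat2, a transcription factor of type I interferon signaling, rose (log2 difference 0.32, limma adjusted p = 0.00488), while the kinase gene Tyk2 fell (-0.29, limma adjusted p = 0.0122). Irf1, a direct activator of the Psmb9 and Tap1 promoter, had 26.6, 26.5 and 30.4 FPKM in parental cells and overlapped with M8 (log2 difference -0.041, limma adjusted p = 0.704). Nlrc5, the transactivator of MHC class I genes, did not pass either (-0.071, limma adjusted p = 0.515). Irf1 and Nlrc5 were singled out after their values had been seen. The 5 higher genes were 3 with TPM, with quantile normalization and without M8 replicate 2, and the 3 lower genes were 1 without parental replicate 2.

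Of 4 genes that control proteasome transcription, Nfe2l1, the factor that raises constitutive subunits when proteasome activity is short, was the only one called. It fell from 108 ± 2.74 to 100.1 ± 1.38 FPKM (SD, n = 3 each, log2 difference -0.11, limma adjusted p = 0.0502). The list thus had 25% lower and 0 higher, beside 16.5% and 21.2% of all genes. The call of Nfe2l1 was lost when any one library other than parental replicate 1 was left out. Another gene of this list was called higher with the replicate block and without parental replicate 3. The lists and the 10 genes were described by counts and medians only, and no test of a list was made.

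**Figure D5:**
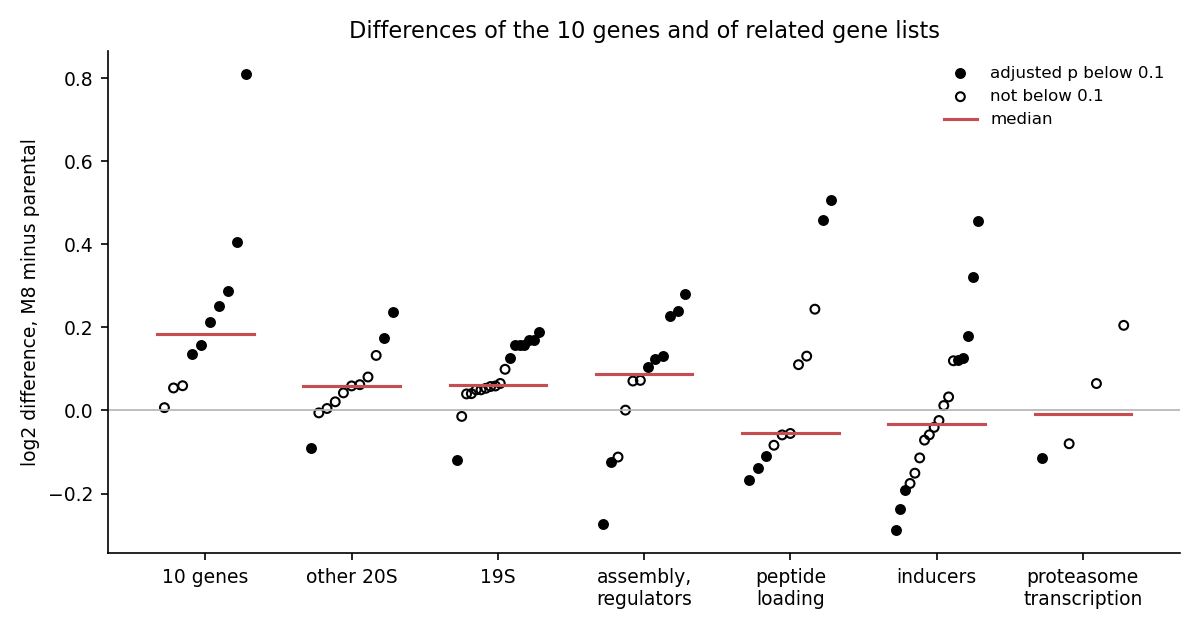
Log2 difference, M8 minus parental, of the 10 genes and of 6 related lists, 1 point per gene, filled where limma's adjusted p was below 0.1, with the median of each list in red. Psmb10, at 0.81, is the highest point, and Tapbp and Tapbpl are the highest of the other lists.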

How the data were processed

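The authors made stranded mRNA libraries, aligned single-end reads to mm10 using TopHat and calculated the deposited FPKM values using Cufflinks, 1 value for each gene symbol and sample. The submitters' processing notes list TopHat2 2.1.1, Bowtie2 2.2.8, SAMtools 0.1.18 and Cuffdiff 2.2.1. The gene annotation is not given in the sources used here. The read counts behind the study's own comparison were not used here, and neither was its count-based test.

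The values were put on a log2(FPKM + 1) scale, and limma 3.58.1 (R 4.3.3; lmFit, then eBayes with trend) was run over the 10597 genes whose mean was 1 FPKM or more, with Benjamini-Hochberg adjustment and the study's threshold of 0.1. On this scale the change of low genes is understated. All 10 genes passed the filter. The limma p-values set the difference between the lines against the spread between replicates, pooled over both lines. They do not cover the spread between clones. Levels within libraries were compared by an exact sign-flip test with a threshold of 0.05. Sequencing depth was estimated from the FPKM steps of 167 low genes with 1 annotated transcript. Replicates of a line differed by more than counting noise (chi-square per gene 2.82 to 9.46), and all 6 libraries were kept as separate samples. Ecpas was matched through an older symbol. Paaf1 was not analysed here.

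The 10 genes and the lists were chosen with earlier results of these data known. Genes outside the 10 are named where they had the 3 largest differences among the called genes of a list, were among the 5 nearest in pattern to an immunosubunit, or share a locus with one of the 10. An item that this rule names is not reported here. Alternatives were other pseudocounts, filters, scalings and thresholds, eBayes without a trend, a replicate block, and each library left out. Python 3.11.15, pandas 2.3.3 and matplotlib 3.10.9 were used.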

Additional observations from a re-analysis of the deposited data

How the results depend on the processing

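Over 18 alternatives, Psmb10 was called higher in all, and Psmb8, Psmb5, Psme1 and Psme2 in 17, all but the fold change of at least 1.5. Psme3 was called in 13 and Pomp in 11. Psmb9 and Psmb6 were called in none and Psmb7 in 1. No called gene of the 10 reversed. A fold change of at least 1.5 left 1 of the 10 genes, and 42 higher and 74 lower of all genes, by its construction. Over all genes there were 2250 higher and 1745 lower, which became 1658 and 2209 with TPM and 1848 and 2154 with upper-quartile scaling. Lower genes numbered 1157 without M8 replicate 1 and up to 1672 with another library left out. The difference in share ranged from 4.70 to 5.67 percentage points for Psmb10, from 0.30 to 1.29 for Psmb8 and from -0.46 to 0.87 for Psmb9. With 5 libraries the exact sign-flip test cannot go below p = 0.0625, so leaving any out ended the calls by construction. The log2 ratios then ranged from -2.50 to -2.45 for Psmb8, from -3.51 to -3.41 for Psmb9 and from -3.14 to -2.96 for Psmb10. Deviations of samples with the same replicate number correlated at r from -0.11 to 0.10, beside -0.13 to 0.18 for samples with unlike numbers. With so few samples this cannot settle whether the numbers pair the samples. With the replicate block, 7 of the 10 genes were called, and 2171 higher and 1688 lower of all genes. The lowest values here, those of Psmb9, rest on an estimated 261 to 443 reads per library.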
